A study of Mus musculus with 51 samples.

Results

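The genes described here are the 69 olfactory receptor (OR) genes of mouse chromosome 9 whose symbols run from *Olfr878* to *Olfr984*, other than *Olfr907*, *Olfr910*, *Olfr912*, *Olfr914* and *Olfr921*. They were chosen by number from the 1117 OR genes of the deposited tables, of which 74 lie in this range. The 5 receptors set aside were known from earlier results of these data to answer the thiazole SBT, so measured values entered the choice through them, and leaving them out lowers the number of responders at SBT. All 69 lie on chromosome 9 of GRCm38, between positions 37917840 and 40114206, a span of 2.2 Mb, with 44 on the plus strand and 25 on the minus strand. In the annotation 66 of them encode an intact protein of 307 to 326 residues, and 3 (*Olfr908*, *Olfr915* and *Olfr936*) are polymorphic pseudogenes. The same span holds 14 more OR genes of the tables that carry other numbers, such as *Olfr143* and *Olfr1537*, and these were not counted.

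ORs are G protein-coupled receptors of the main olfactory epithelium. Each mature olfactory sensory neuron (OSN) transcribes 1 allele of 1 OR gene, so that the receptor mRNA names the neuron, and an odor is encoded by the set of receptors it activates. OR genes arose largely by local duplication, so that neighbors in a cluster are often close in sequence. When an OSN fires, its ribosomal protein S6 becomes phosphorylated, and an antibody against phosphorylated S6 pulls down the translating ribosomes of such neurons together with the bound mRNA, which is then sequenced (pS6-IP-Seq). The OR of an activated OSN then takes a larger share of the OR reads than in mice given diluent. The question asked of this cluster was whether receptors that are neighbors and relatives of the SBT receptors also answered SBT, or any other odor.

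The 51 libraries were made from whole olfactory mucosa of litter-matched, mixed-sex wild-type C57BL/6J mice about 3 weeks old, in 10 odor groups and 7 control groups of 3 mice each. The odors, each given for 1 hr in a volume of 10 μL, were SBT (2-sec-butyl-4,5-dihydrothiazole) at 0.01%, 1% and 100%, MTMT ((methylthio)methanethiol) at 100 μM and 10 mM, 100% (E)-β-farnesene, 1% 2,5-DMP (2,5-dimethylpyrazine), 77% DHB (3,4-dehydro-exo-brevicomin), 1% β-caryophyllene and 100 mM CPD (cyclopentadecanone). Control mice received diluent, which the labels do not name for each mouse. The 1% and 100% SBT groups share 1 control group, and (E)-β-farnesene, 2,5-DMP and 100 μM MTMT share another, so these comparisons are not independent. The tables hold OR genes only, so OSN or other cell type markers could not be checked, and depth is the OR reads of a library, from 27301 to 160001 (median 93870). The shallowest SBT library was control replicate 3 of 1% and 100% SBT, with 27301. In 1% SBT replicate 1 a single OR outside the cluster, *Olfr545*, held 14.4% of the OR reads.

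The coding stretch around the end of the third transmembrane segment is shown for 4 of the SBT receptors set aside, for the cluster members closest to them in protein sequence, and for the members that rose at 100% SBT. Each stretch is 105 bases (35 codons), read 5′ to 3′ on the coding strand of GRCm38, and ends with the conserved codons at the start of the second intracellular loop. Capitals mark bases that differ from *Olfr910*.
*Olfr910*, chr9:38539173-38539277, plus strand: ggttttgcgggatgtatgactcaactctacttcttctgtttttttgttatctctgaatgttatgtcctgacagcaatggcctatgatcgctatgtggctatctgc
*Olfr912*, chr9:38581555-38581659, plus strand: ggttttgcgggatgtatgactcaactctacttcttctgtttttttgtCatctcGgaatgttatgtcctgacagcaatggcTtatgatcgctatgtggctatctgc
*Olfr914*, chr9:38606743-38606847, plus strand: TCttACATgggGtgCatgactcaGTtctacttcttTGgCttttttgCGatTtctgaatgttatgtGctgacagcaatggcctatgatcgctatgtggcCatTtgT
*Olfr921*, chr9:38775533-38775637, plus strand: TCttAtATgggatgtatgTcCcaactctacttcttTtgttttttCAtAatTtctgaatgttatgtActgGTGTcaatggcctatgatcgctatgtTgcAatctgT
*Olfr913*, chr9:38594499-38594603, plus strand: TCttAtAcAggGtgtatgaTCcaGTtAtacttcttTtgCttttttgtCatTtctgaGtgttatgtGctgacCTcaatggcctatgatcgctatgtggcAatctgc
*Olfr920*, chr9:38755966-38756070, plus strand: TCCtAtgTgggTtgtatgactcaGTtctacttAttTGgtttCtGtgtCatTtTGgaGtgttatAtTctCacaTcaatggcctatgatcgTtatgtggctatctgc
*Olfr904*, chr9:38464319-38464423, plus strand: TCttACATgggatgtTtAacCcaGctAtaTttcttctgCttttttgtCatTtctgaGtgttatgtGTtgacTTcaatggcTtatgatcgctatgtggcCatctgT
*Olfr906*, chr9:38488307-38488411, plus strand: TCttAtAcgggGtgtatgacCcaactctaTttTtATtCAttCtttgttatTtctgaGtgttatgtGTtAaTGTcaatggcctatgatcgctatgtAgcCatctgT
*Olfr881*, chr9:37992782-37992886, plus strand: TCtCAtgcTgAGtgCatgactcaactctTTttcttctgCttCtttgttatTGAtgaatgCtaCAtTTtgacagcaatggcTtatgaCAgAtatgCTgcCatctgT
*Olfr930*, chr9:38930449-38930553, plus strand: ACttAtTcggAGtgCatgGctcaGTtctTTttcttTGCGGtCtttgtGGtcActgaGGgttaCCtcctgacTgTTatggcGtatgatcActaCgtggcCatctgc
*Olfr948*, chr9:39319232-39319336, minus strand: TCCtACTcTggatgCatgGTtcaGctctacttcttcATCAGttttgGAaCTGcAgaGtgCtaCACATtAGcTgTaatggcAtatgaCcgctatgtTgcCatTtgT
*Olfr912* differed from *Olfr910* at 3 bases and 0 residues of this stretch, and the whole proteins were 96.5% identical. *Olfr913*, *Olfr904* and *Olfr906*, which flank the SBT receptors, differed from *Olfr910* at 20, 23 and 24 bases, about as many as the SBT receptors *Olfr914* and *Olfr921* did (20 each). The 3 remaining members that rose at 100% SBT lay farther away, with 28 differing bases in *Olfr881*, 32 in *Olfr930* and 39 in *Olfr948*.

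Whole-protein identity to the nearest of the 5 SBT receptors ran from 39.0% (*Olfr984*) to 80.6% (*Olfr920*), with a median of 61.7%. At least 50% identity was reached by 52 members, called relatives here, and 20 members lie within 10 intact OR genes of an SBT receptor in gene order, called near neighbors. The 10 members with the highest identity were *Olfr920* (80.6%, to *Olfr921*), *Olfr913* (79.7%, to *Olfr910*), *Olfr904* (77.7%, to *Olfr910*), *Olfr906* (76.8%, to *Olfr921*), *Olfr905* (72.9%), *Olfr902* (69.9%), *Olfr916* (69.7%), *Olfr918* (69.7%), *Olfr917* (68.9%) and *Olfr878* (67.1%). Sequence similarity also bears on the counts, since a read from a stretch shared with another gene cannot be assigned with certainty. The deposited counts divide such reads between genes by estimate. Of the 69, 12 shared no 50-base exon stretch with another OR gene and 25 shared over 5% of their stretches, up to 46.2% in *Olfr952*. Among the responders described below, *Olfr930* shared 7.43%, *Olfr948* 0.951%, *Olfr881* 0.716% and *Olfr913* none.

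In the 21 control libraries the 69 genes together took 2.22% ± 0.207 of the OR reads (SD, n = 21), from 1.74% to 2.53%, while they are 6.18% of the OR genes. Reads were seen for 46 members in every control library, and 1 member, *Olfr891*, had no read in any of them. The 10 members that took most reads held 38.5% of the summed share: *Olfr981*, *Olfr923*, *Olfr901*, *Olfr983*, *Olfr959*, *Olfr943*, *Olfr974*, *Olfr969*, *Olfr878* and *Olfr972*, with mean shares from 0.117% down to 0.0640%. These shares are of reads and grow with transcript length. *Olfr981*, first by share, has 8.20 kb of exons and came 22nd per kb of exon at 0.0143% per kb. Per kb the highest levels were those of *Olfr969* (0.0416%), *Olfr923* (0.0394%), *Olfr972* (0.0390%), *Olfr944* (0.0377%) and *Olfr901* (0.0362%).

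The 5 members with the fewest reads were *Olfr908*, *Olfr883*, *Olfr926*, *Olfr952* and *Olfr891*, with 8, 5, 5, 2 and 0 reads over the 21 control libraries. Single libraries carried most of what was seen of them elsewhere: 23 of the 31 reads of *Olfr926* came from 10 mM MTMT replicate 3, and all 4 of *Olfr891* from (E)-β-farnesene replicate 1. *Olfr883*, *Olfr891*, *Olfr908* and *Olfr952* reached 10 reads in no comparison with controls and were never tested. Of the other 65, 60 were tested in all 10 comparisons and 5 in some of them.

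The sum over the members, which leaves out the SBT receptors set aside, moved little with SBT. At 0.01% SBT the summed share was 2.20%, 2.15% and 2.13% in the 3 odor libraries against 1.99%, 2.37% and 2.42% in the controls. At 1% SBT it was 2.21%, 2.52% and 2.03%, and at 100% SBT 2.09%, 2.35% and 2.19%, against 2.19%, 2.51% and 2.36% in the controls they share. The groups overlapped at each of the 3 doses, and the ratios of the means were −0.06, −0.06 and −0.09 on the log2 scale. In the shallowest of these libraries the 95% Wilson interval on the summed share ran from 2.19% to 2.55%, for counting error alone. Within equal replicate numbers, taken as pairs at 1% and 100% SBT, the sum was lower than in the control in 3 of 3 pairs at 100% and in 1 of 3 at 1%.

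With 100 μM MTMT the summed share was 2.38%, 2.34% and 2.00%, with (E)-β-farnesene 1.96%, 2.30% and 2.17%, and with 2,5-DMP 1.96%, 2.29% and 2.23%, against 2.22%, 2.14% and 2.18% in their shared controls. β-caryophyllene gave 1.86%, 2.31% and 2.12% against 2.10%, 1.96% and 2.00%. All 4 of these odor groups overlapped their controls. DHB was the only odor whose libraries all lay below their controls, at 1.87%, 2.05% and 2.33% against 2.53%, 2.46% and 2.42%, a log2 ratio of −0.25. CPD (2.05%, 1.42% and 1.80% against 2.36%, 2.10% and 1.74%) and 10 mM MTMT (2.24%, 1.5% and 1.5% against 2.05%, 2.23% and 2.34%) had log2 ratios of −0.23 and −0.33 and overlapped their controls. For 10 mM MTMT the lower value came from replicates 2 and 3, and the share of replicate 1 was within the control range; in replicate 3 an OR outside the cluster, *Olfr541*, held 9.79% of the OR reads. Scaled by the OR reads of each library, the median log2 fold change of all ORs was −0.28 with 10 mM MTMT, −0.08 with DHB and −0.13 with CPD. A share is also relative to the reads of all other ORs. In these bulk libraries fewer cells of a type, less RNA per cell and less S6 phosphorylation cannot be told apart. No p-value is given for the sum, since the members were chosen with results known.

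**Figure D1:**
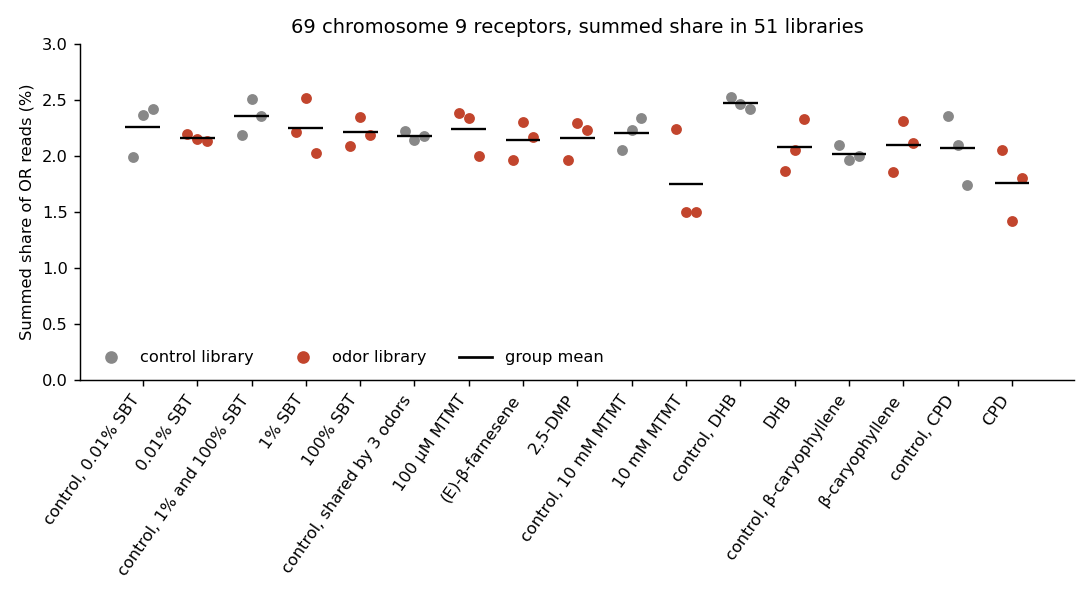
Summed share of OR reads (%) of the 69 receptors in each of the 51 libraries, by group; gray points are control mice, red points odor mice and black lines group means. All libraries lie between 1.42% and 2.53%, and the 3 SBT doses overlap their controls.

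Single receptors did move at the highest SBT dose. At 100% SBT 4 of the 60 members tested rose (*Olfr948*, *Olfr881*, *Olfr913* and *Olfr930*) and 0 fell, by edgeR's quasi-likelihood test at an adjusted p of 0.05 over all ORs tested. Over all 1050 ORs tested, 11.4% passed in either direction and 10.7% rose, against 6.67% of the members. The 5 SBT receptors set aside, of which 3 were called, count only among all ORs. The lower share of the members thus follows in part from the choice. All 4 are relatives, which gives 4 of 44 relatives tested (9.09%), and 2 of them (*Olfr913* and *Olfr930*) are among the 18 near neighbors tested. Every odor library lay above every control library for 6 of the 60 members, or 10.0%, against 13.3% of all ORs tested. The median log2 fold change of the members was 0.00 and that of all ORs tested −0.07. It was −0.09 in the relatives (19 of 44 above 0) and 0.23 in the near neighbors (11 of 18 above 0).

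*Olfr948*, at chr9:39315712-39326045 on the minus strand, had the lowest p. Its share was 0.115%, 0.329% and 0.0921% in the 100% SBT libraries (94, 344 and 53 reads) and 0.0204%, 0.0297% and 0.0293% in the controls (9, 17 and 8 reads). The 95% Wilson interval on the highest value, 0.296% to 0.366%, covers counting error only, as do all such intervals here. Every odor library was at least 3 times as high as any control, and replicate 2 stood highest. The log2 fold change was 3.16 ± 0.54 (SE, n = 3 and 3; edgeR adjusted p = 0.00124), and 2.38 without replicate 2.

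*Olfr881*, at chr9:37991825-37996408 on the plus strand, had shares of 0.126%, 0.196% and 0.0869% (103, 205 and 50 reads) against 0.00681%, 0.0455% and 0.00366% (3, 26 and 1 reads). The groups did not overlap, although the controls themselves spread widely on few reads (the single read of replicate 3 has a 95% Wilson interval of 0.000647% to 0.0207%). Its log2 fold change was 3.11 ± 0.66 (edgeR adjusted p = 0.00587), and 4.95 without control replicate 2, which held 26 of the 30 control reads. The order of *Olfr948* and *Olfr881* by fold change is not settled, since with replicate numbers as a block it was 3.03 against 3.49.

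*Olfr913*, at chr9:38592759-38596283 on the plus strand, is the direct neighbor of *Olfr912* and 79.7% identical to *Olfr910*. It had shares of 0.125%, 0.182% and 0.0956% at 100% SBT and 0.0727%, 0.0350% and 0.0586% in the controls. The lowest odor library exceeded the highest control, and the log2 fold change was 1.69 ± 0.43 (edgeR adjusted p = 0.0180). On library totals without TMM factors it was 1.29 (adjusted p = 0.0609), so this call depended on the scaling. It was also lost without 100% SBT replicate 1 (0.0579) or 2 (0.0910) and without control replicate 2 (0.0674) or 3 (0.0520).

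*Olfr930*, at chr9:38929809-38931396 on the plus strand, passed the threshold by the narrowest margin. Its shares were 0.0404%, 0.0794% and 0.0573% against 0.00681%, 0.0367% and 0.0110%, again without overlap. The log2 fold change was 2.00 ± 0.61 (edgeR adjusted p = 0.04998), and the call was lost in 7 of 11 alternatives. These were library totals (adjusted p = 0.102), the title prefix as a term (0.0728) and the omission of any library but control replicate 2 (up to 0.225 without 100% SBT replicate 2).

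*Olfr920*, the member closest to any SBT receptor (80.6% identity to *Olfr921*, its next OR gene on the chromosome), came next. Its shares were 0.124%, 0.152% and 0.104% at 100% SBT against 0%, 0.0507% and 0.0659% in the controls. The groups did not overlap, but control replicate 1, with 0 of 44027 reads, which allows a share of up to 0.00681% (3 reads), set a wide spread, and the log2 fold change of 2.16 ± 0.71 did not pass (edgeR adjusted p = 0.0716). It passed with replicate numbers as a block (2.43 ± 0.68, adjusted p = 0.0278), as did *Olfr902* (3.22 ± 0.86, adjusted p = 0.0210), which gave 6 members in place of 4 (10.0% of those tested, against 13.6% of all ORs in the same fit). *Olfr902* had 72, 17 and 20 reads at 100% SBT against 13, 0 and 0 in the controls, and its shares overlapped (0.0882%, 0.0163% and 0.0348% against 0.0295%, 0% and 0%).

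**Figure D2:**
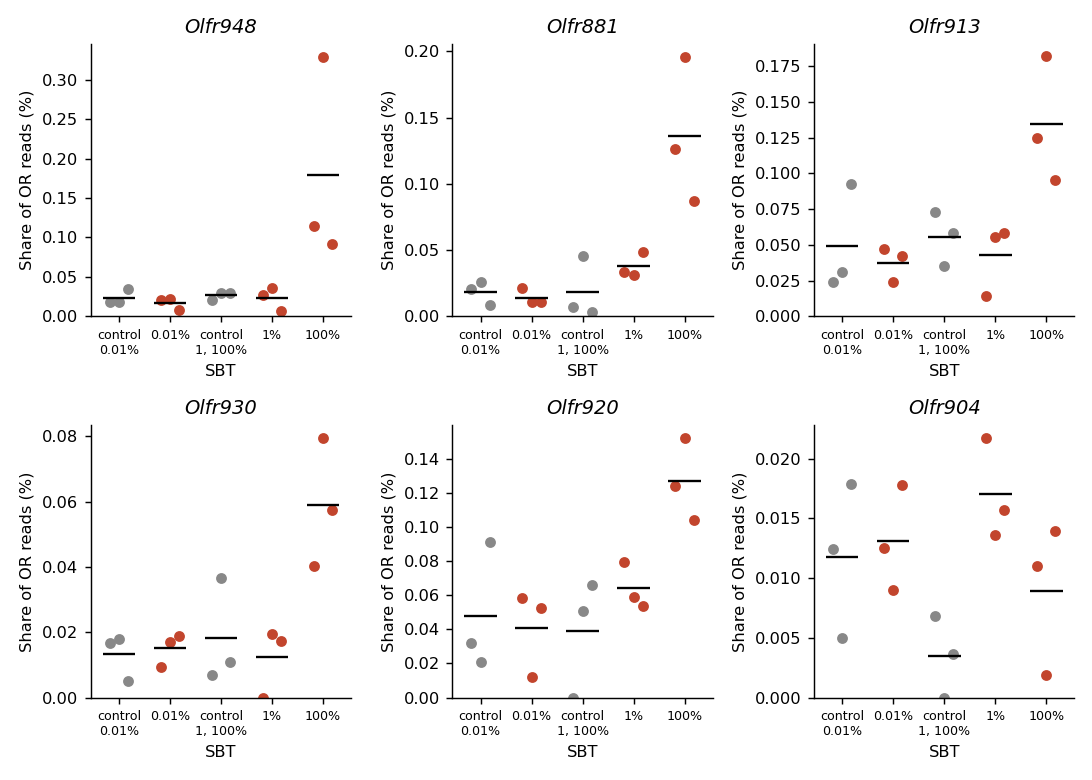
Share of OR reads (%) in each SBT and SBT-control library for the 4 members called at 100% SBT, for *Olfr920* and for *Olfr904*; gray points are control mice, red points odor mice, black lines means of 3, and each panel has its own axis. In the first 5 panels the 3 libraries at 100% SBT lie above their controls, while *Olfr904* overlaps.

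The lower doses gave no call among the members. The 5 SBT receptors set aside lie in the same cluster, were left out because they answered SBT, and count among all ORs. They made up 3 of the 5 ORs called at 0.01% SBT and 4 of the 9 called at 1% SBT by edgeR's test. The absence of calls among the members thus follows in part from the choice, and is no measure of the whole number range. At 1% SBT 0 of 61 members passed edgeR's test against 0.863% of all ORs called, with 0 by DESeq2 against 0.959%. At an unadjusted p under 0.05 there was 1 member (1.64%, against 5.08% of all ORs). That member, *Olfr887*, had 0.0589% ± 0.0182 against 0.0242% ± 0.00760 of the reads (log2 fold change 1.42 ± 0.58, edgeR adjusted p = 0.873). At 0.01% SBT 0 of 64 passed against 0.466% of all ORs, with 0 by DESeq2 against 0.56%. At that dose 3 members had an unadjusted p under 0.05 (4.69%, against 2.71% of all ORs). The lowest p was that of *Olfr954* (0.0207% ± 0.00750 against 0.00628% ± 0.00213, log2 fold change 1.71 ± 0.59, edgeR adjusted p = 0.999). Odor libraries lay above all controls for 2 of 61 members at 1% (3.28%, against 3.74% of all ORs) and 3 of 64 at 0.01% (4.69%, against 3.08%).

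The SBT receptors set aside, given only as points of comparison since they were chosen for their response, had another order of doses. *Olfr910* had mean shares of 0.470%, 0.607% and 0.207% at 0.01%, 1% and 100% SBT, against 0.0696% in the first and 0.0878% in the second control group. *Olfr912* had 0.423%, 0.452% and 0.139%, *Olfr921* 0.181%, 0.310% and 0.169%, *Olfr914* 0.0303%, 0.195% and 0.0581%, and *Olfr907* 0.0160%, 0.0303% and 0.00894%. Of the 5, 3 were called at 0.01%, 4 at 1% and 3 at 100% SBT, so not every one of these means is a called rise. *Olfr914* had 61, 15 and 36 reads at 0.01% SBT against 25, 25 and 37 in its controls. In all 5 the mean at 1% was above that at 100%, with the same controls. The 0.01% group had controls of its own, so its place in the order is not compared, and the 1% mean of *Olfr907* rests on replicate 1 (0.0603% against 0.0181% and 0.0126%). The 4 members called at 100% had their highest mean at 100%, and at 1% their shares overlapped the same controls. They were picked for their call at 100%, and no member was called at 1%. Their order of doses therefore follows in part from the choice, and the contrast with the receptors set aside was not tested.

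The difference between the doses was tested directly, as 100% against 1% SBT. The same 4 members passed, all higher at 100%, out of 61 tested (6.56%, against 9.08% of all ORs called in either direction). Both tests use the same 3 libraries at 100% SBT, in which these 4 had been found high, so that the lists match is not independent evidence. The log2 differences were 3.23 ± 0.61 for *Olfr948* (edgeR adjusted p = 0.00285), 2.09 ± 0.44 for *Olfr881* (0.00633), 1.90 ± 0.47 for *Olfr913* (0.0175) and 2.46 ± 0.70 for *Olfr930* (0.0404). *Olfr881* had shares of 0.0338%, 0.0316% and 0.0487% at 1%, below all 3 libraries at 100%. *Olfr948* passed with any library left out, *Olfr881* missed without 100% SBT replicate 2 (0.0512), *Olfr913* without 100% SBT replicate 1 (0.0580) or 2 (0.107), and *Olfr930* with any library left out but 1% SBT replicate 1 (up to 0.190) and with library totals (0.0659). *Olfr920* missed the threshold (1.23 ± 0.39, edgeR adjusted p = 0.0682). Among the receptors set aside, *Olfr910*, *Olfr912* and *Olfr914* were lower at 100% than at 1% (−1.30 ± 0.38, −1.47 ± 0.37 and −1.48 ± 0.44). Doses are single exposures of different mice, so the order is that of 3 groups and not of 1 animal.

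**Figure D3:**
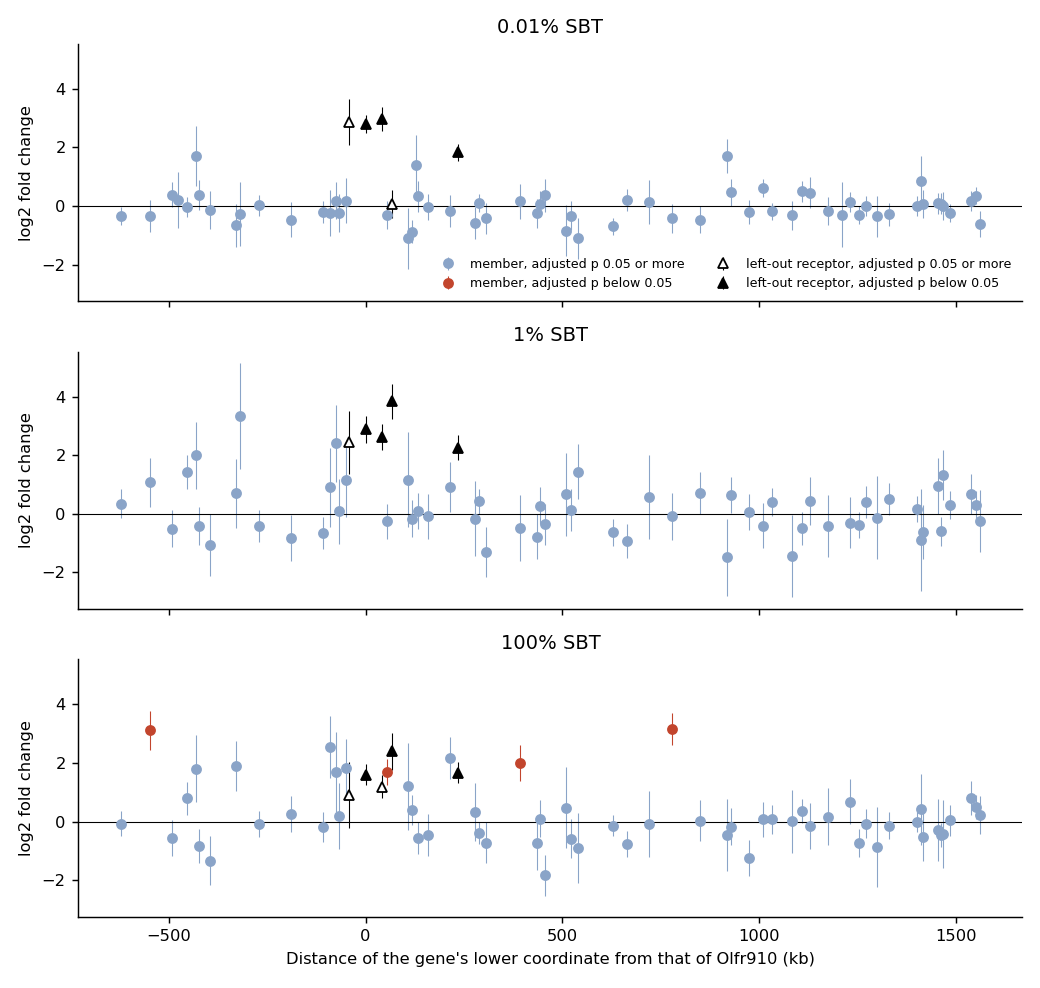
log2 fold change (odor over control) of each tested member (circles) and of the 5 SBT receptors set aside (triangles) against the distance in kb from *Olfr910* at 0.01%, 1% and 100% SBT; bars are 1 SE, and filled red or black marks have an adjusted p below 0.05. Red circles occur only in the 100% SBT panel, at 4 separate positions.

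Among the 10 members closest to an SBT receptor, 9 were tested at 100% SBT, and 1 of them, *Olfr913*, passed (11.1%, against 11.4% of all ORs). With replicate numbers as a block *Olfr902* and *Olfr920* passed as well, which gave 3 of 9 against 13.6% of all ORs. The count ran from 0 to 3 over the alternatives, in which 8.6% to 13.6% of all ORs were called. The log2 fold change was above 0 in 7 of the 9, with a median of 1.69 against −0.07 for all ORs tested. The 5 highest were those of *Olfr902* (2.54 ± 1.06), *Olfr920* (2.16 ± 0.71), *Olfr906*, *Olfr904* and *Olfr913*. *Olfr904*, 77.7% identical to *Olfr910*, had shares of 0.0110%, 0.00191% and 0.0139% against 0.00681%, 0% and 0.00366%, which overlap (log2 fold change 1.70 ± 1.36). At 1% SBT all its odor libraries lay above the controls, at 0.0217%, 0.0136% and 0.0157%, on 9 to 10 reads each (2.40 ± 1.32, edgeR adjusted p = 0.994). *Olfr906*, beside *Olfr907*, had a mean of 0.0210% ± 0.00912 at 100% SBT against 0.00775% ± 0.00674, without overlap (1.84 ± 0.97, edgeR adjusted p = 0.315). These receptors had few reads, and their SEs near 1 leave room for changes of the size seen in *Olfr913*.

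The other 4 had lower values. *Olfr878*, with 0.0443% ± 0.00983 against 0.0609% ± 0.0158 at 100% SBT, had a log2 fold change of −0.07 ± 0.43, and *Olfr916* (0.0341% ± 0.0122 against 0.0338% ± 0.00573) 0.39 ± 0.52. *Olfr905* gave 0.20 ± 1.13 and *Olfr918* −0.56 ± 0.56, with all 3 odor libraries of *Olfr918* below the controls. *Olfr917* had too few reads to be tested at 1% or 100% SBT. Across the 58 members with an intact protein that were tested at 100% SBT, Spearman's rho between identity and log2 fold change was 0.149 (Pearson's r = 0.259). It was 0.235 at 1% SBT (r = 0.226, 59 members) and −0.0856 at 0.01% SBT (r = −0.0899, 62 members). These are given as descriptions, since within a dose the genes share the same 6 libraries.

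**Figure D4:**
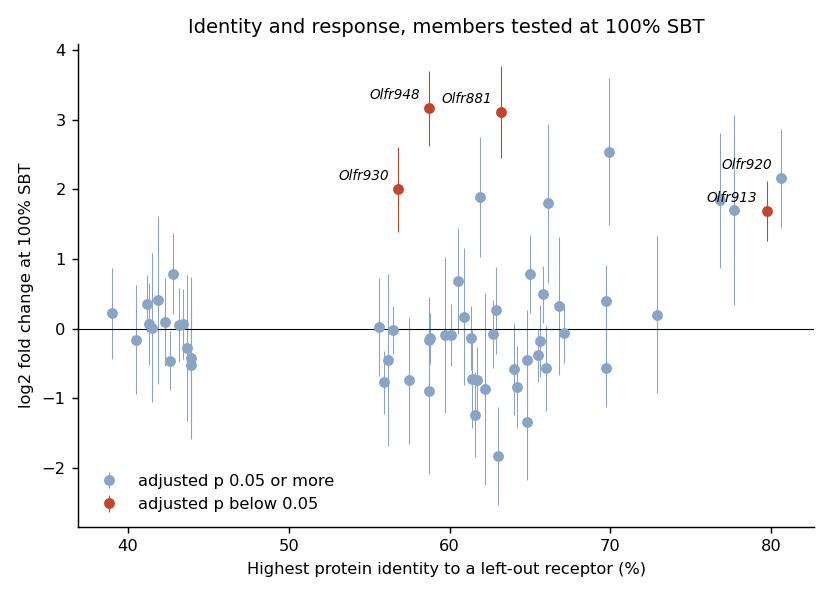
log2 fold change at 100% SBT (bars 1 SE) against the highest protein identity (%) to one of the 5 SBT receptors set aside, for the 58 tested members with an intact protein; red points have an adjusted p below 0.05. The red points lie at 56.8%, 58.7%, 63.2% and 79.7% identity, with uncalled members at similar identity around each.

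The responders were not close to one another. *Olfr881*, *Olfr913*, *Olfr930* and *Olfr948* shared at most 62.5% of residues pairwise, while the median over the 2145 pairs of members was 55.5%, and each had a closer member that did not pass. *Olfr881* was 85.4% identical to *Olfr888*, whose share was 0.0174% ± 0.0189 at 100% SBT against 0.00722% ± 0.00733 (log2 fold change 1.80 ± 1.14, edgeR adjusted p = 0.432). *Olfr930* was 85.7% identical to *Olfr933*, at 0.0157% ± 0.0148 against 0.0341% ± 0.0220 (−0.74 ± 0.91). *Olfr948* was 81.2% identical to *Olfr943*, at 0.0606% ± 0.00170 against 0.0882% ± 0.00676 (−0.14 ± 0.37). Only for *Olfr913* was the closest member, *Olfr920* at 76.5%, the next in the ranking by p.

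By number, the calls at 100% SBT were 1 of 10 tested from *Olfr878* to *Olfr898* (10.0%), 1 of 14 from *Olfr901* to *Olfr926* (7.14%), 2 of 17 from *Olfr930* to *Olfr959* (11.8%) and 0 of 19 from *Olfr960* to *Olfr984*, against 11.4% of all ORs. The first 3 blocks lay near that share, and counts this small set no block apart. The median log2 fold changes of these blocks were 0.09, 0.35, −0.14 and −0.02. The largest decrease was that of *Olfr935*, from 0.0385% ± 0.0175 to 0.00839% ± 0.00216, with no overlap (−1.83 ± 0.70, edgeR adjusted p = 0.140). Every odor library lay below every control for 11 of the 60 members, or 18.3%, against 20.3% of all ORs tested.

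No odor other than SBT gave a call in the cluster. With 100 μM MTMT 0 of 64 members passed edgeR's test against 0.281% of all ORs, with 4 at an unadjusted p under 0.05 (6.25%, against 4.12% of all ORs). The lowest p was that of *Olfr959* (0.103% ± 0.0302 against 0.0635% ± 0.00961, log2 fold change 0.65 ± 0.25, edgeR adjusted p = 0.955). With 10 mM MTMT 0 of 65 passed against 0.0% of all ORs, with 2 at an unadjusted p under 0.05 (3.08%, against 6.55% of all ORs). *Olfr982* led by p (0.0254% ± 0.00933 against 0.0700% ± 0.00965, −1.16 ± 0.35, edgeR adjusted p = 0.449). DESeq2 called 0 members in both, against 0.468% of all ORs at 100 μM and 1.42% at 10 mM. Without 10 mM MTMT replicate 1, edgeR called 3.64% of all ORs and 0 members.

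(E)-β-farnesene came nearest to a call. Against 1.77% of all ORs, 0 of 64 members passed, with 0 by DESeq2 against 1.68%. At an unadjusted p under 0.05 there were 2 members (3.12%, against 6.44% of all ORs). *Olfr983*, near the distal end of the cluster, had shares of 0.205%, 0.225% and 0.133% against 0.130%, 0.0985% and 0.0762% in the controls. The lowest odor library was only just above the highest control, and the log2 fold change was 0.95 ± 0.28 (edgeR adjusted p = 0.139). With replicate numbers as a block it passed (0.93 ± 0.23, adjusted p = 0.0319), as it did without control replicate 1 (adjusted p = 0.0283) and without odor replicate 3 (0.0185). With 2,5-DMP, measured against the same controls, 0 of 64 passed against 0.841% of all ORs, with 0 by DESeq2 against 1.03%. At an unadjusted p under 0.05 there was 1 member (1.56%, against 4.39% of all ORs). That was *Olfr901* (0.0613% ± 0.0153 against 0.117% ± 0.0747, −0.95 ± 0.37, edgeR adjusted p = 0.734), whose control mean rests on replicate 1 at 0.203%.

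With DHB 0 of 64 passed against 0.564% of all ORs, with 2 at an unadjusted p under 0.05 (3.12%, against 3.57% of all ORs). *Olfr951* led (0.0123% ± 0.00333 against 0.0341% ± 0.0178, −1.35 ± 0.50, edgeR adjusted p = 0.994). The median log2 fold change of the 64 members was −0.20 against 0.01 for all ORs tested. With β-caryophyllene 0 of 63 passed against 0.0% of all ORs, with 3 at an unadjusted p under 0.05 (4.76%, against 4.87% of all ORs). *Olfr918* led (0.0250% ± 0.00989 against 0.00854% ± 0.00442, 1.63 ± 0.67, edgeR adjusted p = 0.904). With CPD 0 of 64 passed against 0.0% of all ORs, with 3 at an unadjusted p under 0.05 (4.69%, against 3.81% of all ORs). *Olfr961* led (0.0257% ± 0.0117 against 0.0648% ± 0.0245, −1.23 ± 0.42, edgeR adjusted p = 0.993). DESeq2 called 0 members in each of these 3, against 0.752% of all ORs with DHB, 0.0% with β-caryophyllene and 0.0952% with CPD.

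The 4 members called at 100% SBT passed in none of the 9 other comparisons with controls. *Olfr881* ranged there from −0.40 (DHB) to 1.07 (1% SBT) on the log2 scale, and *Olfr913* from −0.76 (2,5-DMP) to 0.25 (DHB). *Olfr948* was lower with 10 mM MTMT (0.00709% ± 0.00686 against 0.0291% ± 0.00826, −1.78 ± 0.69, edgeR adjusted p = 0.582) and higher with CPD (0.0323% ± 0.00812 against 0.0158% ± 0.00126, 1.14 ± 0.44, edgeR adjusted p = 0.993), without overlap in either. *Olfr930* was lower with β-caryophyllene (0.00421% ± 0.00447 against 0.0198% ± 0.00829, −2.13 ± 0.88, edgeR adjusted p = 0.904). None of these is a call, and the spread of these genes between the control groups was of the same kind: over the 21 control libraries *Olfr948* ran from 0.00904% to 0.0378%, *Olfr881* from 0.00366% to 0.0480%, *Olfr913* from 0.0179% to 0.0922% and *Olfr930* from 0% to 0.0367%. All 3 libraries at 100% SBT exceeded each of these highest control values.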

How the data were processed

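The authors aligned 50 or 75 base single reads with STAR to GRCm38.p6 (up to 10 placements per read, 1 OR gene model deleted) and quantified genes with RSEM. The expected counts deposited by the authors are RSEM estimates of reads per OR gene and library, stored as whole numbers and not normalized. Their fold changes, p-values and FDRs were not used, and 6 per-sample columns of a 2-heptanone table that match no sample label were left out.

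A share is the reads of a gene divided by the OR reads of its library, in percent. Odor was set against control with edgeR 4.0.16 (R 4.3.3) over all OR genes with at least 10 reads in the libraries compared, with TMM factors, glmQLFit, glmQLFTest and Benjamini-Hochberg adjustment at 0.05, after the script was tested on simulated data. An SE is the log2 fold change divided by the square root of F. Other settings were DESeq2 1.42.0, replicate numbers as a block, at least 1 read, no TMM factors (library totals), the sample-title prefix as a term (where prefixes differ within an experiment), each library left out, and, for the summed share, removal of the OR or member with most reads. Deviations of equal replicate numbers correlated above 0.1 in every pair for 1% SBT, 100% SBT, 100% against 1% SBT, 2,5-DMP, DHB, β-caryophyllene and CPD, where the numbers were taken to pair littermates. The main fit held no block in any comparison, so it left this pairing out. Libraries within groups differed beyond counting noise in each of 51 pairs (chi-squared over its degrees of freedom was 5.22 to 28.0). Errors of group mean shares are therefore the SD between the 3 mice of a group. The SE of a fold change comes from the fit, whose dispersion estimates draw on all ORs tested.

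Coordinates, exons and coding sequences came from GENCODE M21 on GRCm38, and protein identity from global BLOSUM62 alignments of translated models (gap penalties 11 and 1, Biopython 1.88), relative to the shorter protein. Genes are named where called, lowest in p in a comparison, among the 10 highest or 5 lowest in controls, among the 10 closest to an SBT receptor, or untested. *Olfr902*, *Olfr935*, *Olfr957* and the closest members of the responders were added after their values were seen. The members and lists were chosen with earlier results of these data known.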

Additional observations from a re-analysis of the deposited data

Results flagged for a closer look

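In 4 receptors the response differed between SBT doses by the test of 100% against 1% SBT itself (edgeR, adjusted over all ORs tested). They are 6.56% of the 61 members tested, against 9.08% of all ORs, which include the SBT receptors set aside. They had been found high in the same 3 libraries at 100% SBT. The log2 difference was 3.23 for *Olfr948* (higher in 3 of 3 libraries at 100% than in any at 1%), 2.09 for *Olfr881*, 1.90 for *Olfr913* and 2.46 for *Olfr930*, and in each of them the 3 libraries at 100% lay above all 3 at 1%. Without 1% SBT replicate 1, the library in which *Olfr545* held 14.4% of the OR reads, all 4 still passed, and *Olfr920* passed as well. These were 8.2% of the members tested, against 8.55% of all ORs.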

How the results depend on the processing

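At 100% SBT 4 members passed in the main test, 4 by DESeq2 and with at least 1 read, 3 with the title prefix as a term and 2 on library totals, which moved the median of all ORs to −0.47 and the split of their calls from 112 higher and 8 lower to 85 and 42. The shares of all ORs called were 11.4%, 13.2%, 11.4%, 11% and 12.1%, against 6.67%, 6.67%, 6.06%, 5.0% and 3.33% of the members. The members leave out the SBT receptors set aside, which all ORs include. Leaving out single libraries gave 2 to 5 members: 2 (*Olfr948* and *Olfr881*) without 100% SBT replicate 1 or without replicate 2, and 5 without control replicate 1, where *Olfr902* and *Olfr920* joined. In that order the members' shares were 3.33%, 3.39% and 8.33%, against 8.6%, 9.56% and 11.5% of all ORs. *Olfr957*, the only member called lower in any of these, passed without control replicate 3 (−1.68, adjusted p = 0.0485). *Olfr948* and *Olfr881* passed in all 11 alternatives (adjusted p up to 0.00783 and 0.0297), *Olfr913* in 6 (up to 0.0910) and *Olfr930* in 4 (up to 0.225). For 100% against 1% SBT the count of 4 became 5 by DESeq2, 3 on library totals and 1 to 5 with a library left out: 2 without 100% SBT replicate 1, and 1, *Olfr948*, without replicate 2. The members' shares were 8.2% by DESeq2 and 4.92% on library totals, against 10.1% and 7.74% of all ORs. Without 100% SBT replicate 1 or 2 they were 3.28% and 1.64%, against 5.0% and 6.29% of all ORs.

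With the replicate number as a block, 6 members passed at 100% SBT (10.0%, against 13.6% of all ORs), 5 at 100% against 1% SBT (8.20% against 11%) and 1, *Olfr983*, with (E)-β-farnesene (1.56% against 1.77%). There the numbers were not taken as pairs, since the correlation was above 0.1 in replicate 1 only (0.105). Replicates 2 and 3 lay narrowly below it (0.0919 and 0.0975). 2,5-DMP, with the same controls, met that limit (0.161, 0.122 and 0.135), so the pairing of (E)-β-farnesene is not settled. The block changed no other count of members. *Olfr983* was also the 1 member called when control replicate 1 or odor replicate 3 was left out (1.56% of the members, against 1.78% and 2.63% of all ORs). The (E)-β-farnesene count was thus 0 to 1 over the omissions. In the other 8 comparisons with controls the count was 0 under all alternatives run. The log2 ratio of the summed share moved by less than the spread between replicates under every alternative, and no fold change of a called member changed sign.

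Counts limit these results: a share of 0.01% is a handful of reads in the shallowest SBT control library, and 4 members could not be tested at all. For relatives with few reads, such as *Olfr904* and *Olfr906*, an SE near 1 on the log2 scale leaves wide intervals, so that a missed threshold does not show that a change was absent. Reads placed by RSEM between similar genes add an error that these tables do not show.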
